A study of Mus musculus with 19 samples.

Results

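The blood-nerve barrier genes described here are 9 genes whose products make the cell junctions and transporters of the barrier, out of 18193 genes with a symbol on the arrays. They are the junction genes Cldn1, Cldn5, Ocln and Tjp1, the matrix receptor gene Itgb4, and the transporter genes Slc2a1, Mfsd2a, Abcb1a and Abcg2. Members were chosen by name, each was read from the probe set that was brightest on average, and all 9 lay above the filter on low values that left 13460 genes for testing. Sciatic nerve RNA was measured in 4 groups of mice of the inbred strain DBA/2J. Diabetic mice given rosiglitazone (DR, 5 arrays) and diabetic mice given vehicle (DV, 5 arrays) had received streptozotocin, a toxin of insulin-producing cells. Control mice given rosiglitazone (CR, 5 arrays) and control mice given vehicle (CV, 4 arrays) had not, and 1 further control array was excluded by the authors for its quality. Rosiglitazone activates the nuclear receptor PPAR gamma. Doses, durations, ages and sexes are not given in the sources used here. Arrays are named by group and the number in their title, so DV709 is a diabetic vehicle array. All values are log2 intensities, and a difference of 1 is a doubling.

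A peripheral nerve is shielded by a pair of cell layers. Endothelial cells of the vessels inside the nerve are sealed by tight junctions, and the perineurium, a sheath of flattened cells around each bundle of fibres, is sealed in the same way. Claudins and occludin form the junction strands, the ZO proteins tie the strands to actin, and carriers and efflux pumps decide which sugars, lipids and drugs cross.

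The promoters of Mfsd2a and Abcb1a are shown because these members had the most alike pattern over the arrays, as described further on. The sequences are from RefSeq on GRCm38.p6, run 5′ to 3′ on the gene's strand, and cover 250 bases before and 50 bases after the start of transcription. Capitals mark the letters of 3 motifs searched on both strands, AGGTCA (the half-site that PPAR receptors read), GGGCGG (the GC box) and CCAAT, whose reverse complement is ATTGG.
Mfsd2a, chr4:122961139-122961438, minus strand: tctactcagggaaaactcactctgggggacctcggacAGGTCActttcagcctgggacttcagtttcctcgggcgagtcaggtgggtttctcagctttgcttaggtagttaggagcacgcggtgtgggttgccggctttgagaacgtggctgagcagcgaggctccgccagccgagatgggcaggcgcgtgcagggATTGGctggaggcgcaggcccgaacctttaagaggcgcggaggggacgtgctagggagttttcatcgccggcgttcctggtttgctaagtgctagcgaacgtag
Abcb1a, chr5:8566841-8567140, plus strand: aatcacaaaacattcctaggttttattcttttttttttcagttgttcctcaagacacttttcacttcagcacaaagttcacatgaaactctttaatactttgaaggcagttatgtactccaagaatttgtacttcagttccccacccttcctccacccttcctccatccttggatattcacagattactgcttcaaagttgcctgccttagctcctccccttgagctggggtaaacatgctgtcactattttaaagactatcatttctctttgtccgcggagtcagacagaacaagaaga
The Mfsd2a window held AGGTCA and the reverse of CCAAT and had a GC content of 60.3%, whereas the Abcb1a window held none of the 3 motifs and had a GC content of 40.3%. Windows were found for 8 of the 9 members, 11 windows in all, and Itgb4 is named only. AGGTCA lay in 4 of the 11 windows, those of Abcg2, Mfsd2a and Ocln, and in 16.3% of 32851 mouse promoter windows of the same length. GGGCGG lay in 8 of the 11 windows and in 35.7% of all windows, and CCAAT lay in 5 of the 11 and in 37.4% of all. A match of letters describes the window and does not show that a factor binds there.

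The samples were nerve by their transcripts. Mbp, a myelin protein gene, lay between 13.83 and 14.44 on all 19 arrays, and Sox10, a Schwann cell transcription factor gene, between 10.26 and 12.91. Content other than nerve varied widely. Marker levels, each the mean of a list's genes after centring every gene over the arrays, ran from -4.97 to 2.59 for adipocytes and from -3.74 to 2.20 for sensory neuron cell bodies, with the lowest value of both in DV709. DV706, DV707, DV709, CR715 and DR716 were low in sensory neuron markers, which left 2 DV, 4 CV, 4 DR and 4 CR arrays when they were left out. RNA integrity was read from the Gapdh control probe sets as the 3′ signal less the 5′ signal, a difference that degraded RNA widens. It was 3.71 in DV706, 4.38 in DV707 and 1.75 in DR716, against 1.00 to 1.37 on the other arrays. In bulk tissue, fewer cells of a type and less RNA per cell cannot be told apart.

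The first comparison set diabetic against control nerves under vehicle. Of the barrier genes, the efflux pump genes Abcg2 and Abcb1a and the endothelial claudin gene Cldn5 had higher means in diabetic nerve, at 1.29-fold, 1.35-fold and 1.23-fold, while the perineurial claudin gene Cldn1 and the occludin gene Ocln had lower means, at 0.784-fold and 0.598-fold. None of the 9 passed the adjusted threshold of 0.05 in limma's test across 13460 genes, where 0 genes (0%) passed. At an unadjusted p under 0.05, 1 of 9 members was found, Abcg2 on the higher side, against 2439 genes (18.1%) in all and 1444 (10.7%) on the higher side. The count of 1 in 9 members is near the share of all genes on the higher side. No member had groups that did not overlap, against 681 genes (5.06%). Means were higher in DV for 7 members and lower for 2, while 52.9% of all genes tested had the higher mean there. The median difference was 0.12 over the members and 0.03 over all genes tested. The count of 7 leans on DV709, since without that array Itgb4 (-0.16), Tjp1 (-0.016) and Mfsd2a (-0.080) were lower in DV.

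Cldn1 encodes the claudin that seals the perineurium. It measured 11.23, 11.83, 11.76, 12.65 and 11.96 in DV and 12.51, 12.27, 12.15 and 12.01 in CV. 4 of the 5 DV arrays lay below every CV array, and DV709 lay above all of them, so the groups overlap through that array. The mean was 11.88 ± 0.51 (SD, n = 5) in DV and 12.24 ± 0.21 (SD, n = 4) in CV, a difference of -0.35 (SE 0.20, 95% interval -0.78 to 0.08, adjusted p = 0.341). Without DV709 the difference was -0.54 (SE 0.16, adjusted p = 0.145), and without DV706, the array lowest in Cldn1, it was -0.19 (SE 0.18, adjusted p = 0.689). Without DV706 and DV707, both high in the Gapdh difference, it was -0.11 (adjusted p = 0.966). Without the 5 arrays poor in sensory neuron markers it was -0.38 (SE 0.15, adjusted p = 0.419). In that setting Cldn1, and not Abcg2, was the 1 member with an unadjusted p under 0.05 in limma's test. Perineurial marker levels ran from -0.14 to 0.60 in DV and from -0.18 to 0.09 in CV, over all 6 listed genes, and the highest was again in DV709. Krt23 of that list lay below the filter and ran the other way, at 5.75 in DV706, 6.06 in DV707 and 4.39 in DV709. Ntn4, above the filter, was also higher in DV706 (11.57) and DV707 (12.03) than in DV709 (11.265). Lypd2 (10.285) and Msln (8.84) had their lowest values of the 19 arrays in DV706, so the list did not move as one. Epithelial marker levels, over 8 genes, ran from -0.21 to 0.74 in DV and from -0.31 to -0.04 in CV. Of the epithelial genes, Epcam, Krt14, Krt8 and Cldn4 lay below the filter, and the part of either list in the Cldn1 values was not tested. Under rosiglitazone, Cldn1 measured 11.71, 12.23, 11.80, 12.15 and 12.01 in DR and 11.84, 11.89, 12.03, 12.06 and 11.95 in CR. The CR arrays span the narrowest range of the 4 groups, and the DR arrays lie on both sides of it. A second Cldn1 probe set gave -0.15 for DV minus CV, and the remaining 2 were below the filter.

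Itgb4 encodes integrin beta 4, a laminin receptor of perineurial and Schwann cells. It measured 11.58, 11.61, 11.72, 12.69 and 11.04 in DV and 11.99, 11.67, 11.71 and 11.23 in CV. DV709 was the highest and DV710 the lowest of all 19 arrays, so the diabetic vehicle group spans the whole range of the gene. The difference was 0.08 (SE 0.28, 95% interval -0.52 to 0.68, adjusted p = 0.884), and it was -0.16 without DV709 and 0.25 without DV710. Under rosiglitazone, Itgb4 measured 11.50, 11.48, 11.13, 11.37 and 12.16 in DR and 12.32, 11.45, 11.50, 11.57 and 11.37 in CR. A single array stood high in each of these groups, DR720 and CR711.

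Cldn5 encodes the claudin of endothelial tight junctions. It measured 12.26, 10.30, 11.61, 12.84 and 11.58 in DV and 11.56, 11.62, 11.16 and 11.33 in CV. Both the lowest and the highest array of the study were diabetic vehicle arrays, DV707 and DV709, and the SD was 0.94 (n = 5) in DV and 0.21 (n = 4) in CV. The difference was 0.30 (SE 0.38, 95% interval -0.49 to 1.10, adjusted p = 0.653). It was 0.02 without DV709, 0.66 without DV707 and 0.18 without the 5 arrays poor in sensory neuron markers. Endothelial marker levels, over all 10 listed genes, ran from -0.38 to 1.09 in DV and from -0.49 to -0.17 in CV. DV706 and DV707 had the highest endothelial levels of all arrays, 1.09 and 0.87, and DV707 had the lowest Cldn5. Both also had the widest Gapdh differences, 3.71 and 4.38. With the Gapdh difference as a covariate the Cldn5 difference was 0.66 (SE 0.38), and without both arrays it was 0.60 (SE 0.33, adjusted p = 0.961). The part of RNA integrity in the Cldn5 values was not tested. Under rosiglitazone, Cldn5 measured 10.88, 10.98, 11.65, 12.18 and 11.87 in DR and 11.86, 11.98, 11.81, 11.68 and 11.31 in CR, with 2 DR arrays below every CR array and 1 above.

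Ocln encodes occludin, a membrane protein of tight junction strands. It measured 9.08, 7.02, 9.58, 10.33 and 9.58 in DV and 10.31, 9.52, 9.65 and 9.96 in CV. DV707 was the lowest of the 19 arrays and DV709 the highest, and of the other 3 DV arrays 1 lay below the CV range and 2 inside it. The mean was 9.12 ± 1.25 (SD, n = 5) in DV and 9.86 ± 0.35 (SD, n = 4) in CV, a difference of -0.74 (SE 0.53, 95% interval -1.85 to 0.37, adjusted p = 0.426). It was -0.22 without DV707, -1.04 without DV709 and -0.28 without the 5 arrays poor in sensory neuron markers. With the Gapdh difference as a covariate it was 0.01. The second Ocln probe set gave -0.73, but its lowest DV array was DV706 (6.78), with DV707 at 7.78. Under rosiglitazone, Ocln measured 8.24, 9.65, 10.12, 9.38 and 8.96 in DR and 9.44, 9.37, 9.73, 10.12 and 8.43 in CR, and the ranges of these groups nearly coincide.

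Tjp1 encodes ZO-1, the scaffold under the junction. It varied least of the 9, by 0.42 over the 19 arrays (1.34-fold), against 3.31 (9.92-fold) for Ocln. Its values ran from 12.58 to 12.93 in DV and from 12.64 to 12.85 in CV, and from 12.51 to 12.68 in DR and from 12.57 to 12.75 in CR. The difference under vehicle was 0.01 (SE 0.09, 95% interval -0.17 to 0.20, adjusted p = 0.942), so the interval reaches from 0.887-fold to 1.15-fold. Without DV706, which was highest, it was -0.03.

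**Figure D1:**
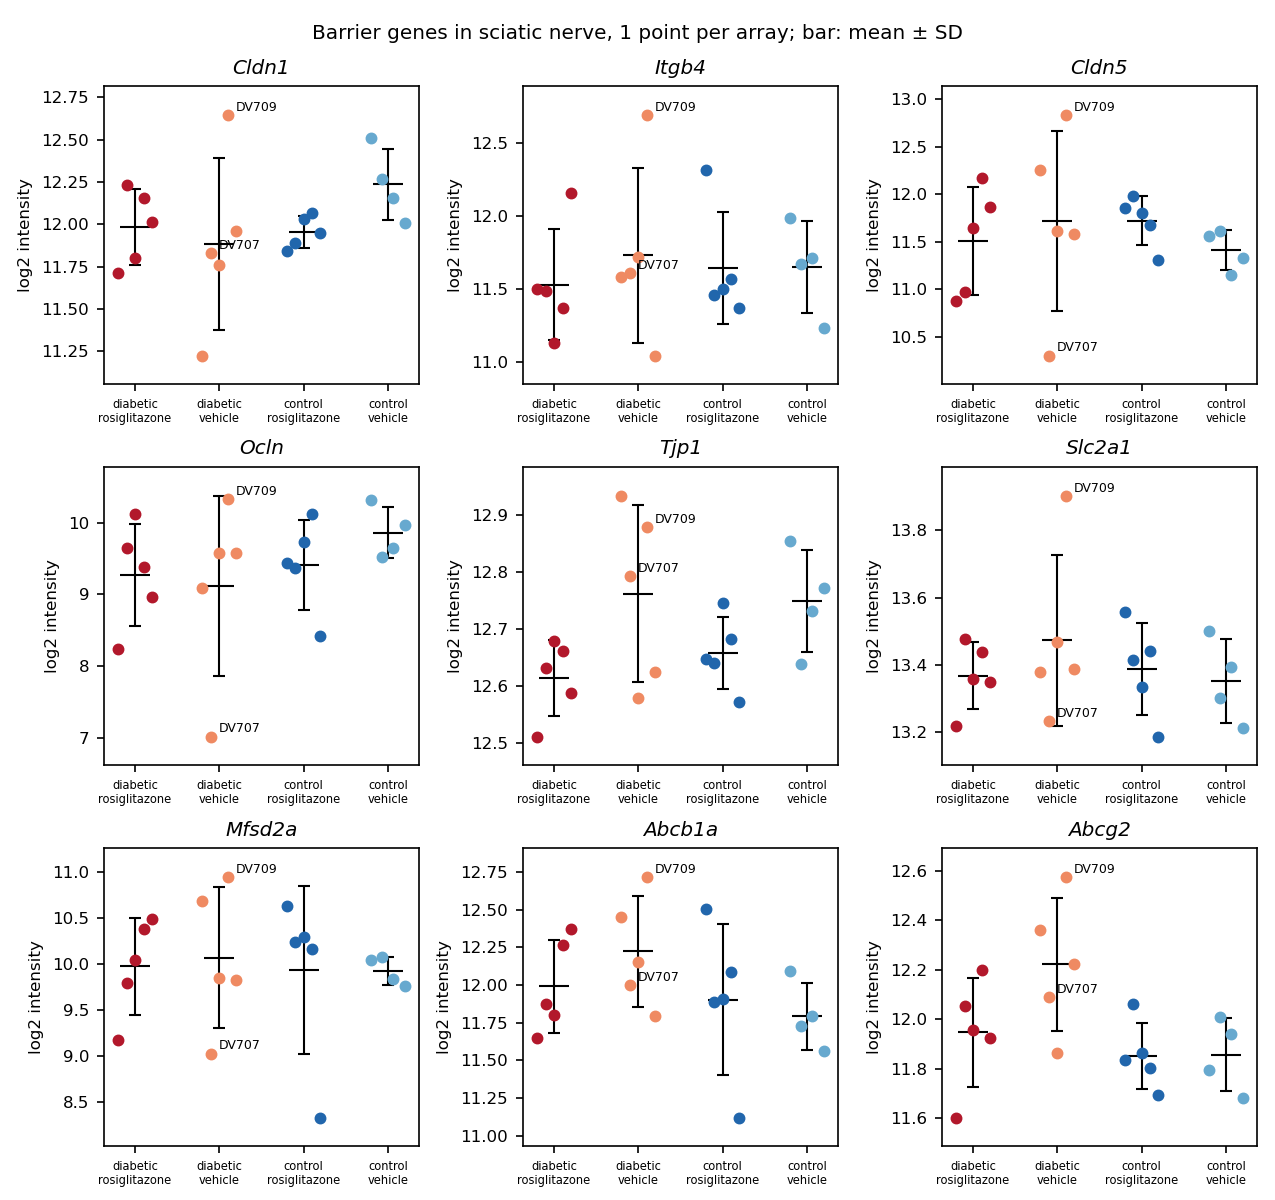
Log2 intensity of each barrier gene (vertical axes, with a different range per gene) in diabetic rosiglitazone, diabetic vehicle, control rosiglitazone and control vehicle nerves, 1 point per array, with the mean and SD as bars. DV709 is the highest array for 8 of the 9 genes, and DV707 is the lowest for Cldn5 and Ocln.

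The transporter genes had higher means in diabetic nerve under vehicle, by 0.12 to 0.43. Slc2a1 encodes GLUT1, the glucose carrier of the barrier cells. It measured 13.38, 13.23, 13.47, 13.90 and 13.39 in DV and 13.50, 13.30, 13.39 and 13.21 in CV. All DV arrays but DV709 lay within the range of the CV arrays. The difference was 0.12 (SE 0.12, 95% interval -0.13 to 0.38, adjusted p = 0.570), and it was 0.01 without DV709. The other 2 probe sets of Slc2a1 gave 0.12 and 0.16. In DR it ran from 13.22 to 13.48 and in CR from 13.19 to 13.56.

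Mfsd2a encodes a lysophospholipid carrier that brings long-chain fatty acids such as docosahexaenoic acid across barrier endothelium. It measured 10.68, 9.02, 9.85, 10.94 and 9.82 in DV and 10.04, 10.07, 9.84 and 9.76 in CV. The CV arrays are close together, while DV706 and DV709 lie above them and DV707 below. The difference was 0.14 (SE 0.43, 95% interval -0.77 to 1.05, adjusted p = 0.865), and it was -0.08 without DV709 and 0.40 without DV707. Under rosiglitazone, Mfsd2a measured 9.17, 9.79, 10.04, 10.38 and 10.48 in DR and 10.62, 10.23, 10.29, 10.16 and 8.33 in CR. CR715 had the lowest value of all arrays, far below the other CR arrays.

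Abcb1a encodes a P-glycoprotein, an ATP-driven pump that exports drugs. It measured 12.45, 12.001, 12.15, 12.72 and 11.79 in DV and 12.09, 11.73, 11.79 and 11.56 in CV. 3 of the 5 DV arrays lay above every CV array. The difference was 0.43 (SE 0.24, 95% interval -0.08 to 0.94, adjusted p = 0.331), it was 0.31 without DV709 and 0.54 without DV710, and a second probe set gave 0.27. Leaving out the 5 arrays poor in sensory neuron markers gave 0.18 (adjusted p = 0.759). Under rosiglitazone, Abcb1a measured 11.65, 11.87, 11.80, 12.26 and 12.37 in DR and 12.50, 11.89, 11.91, 12.08 and 11.12 in CR, where CR711 and CR715 enclose the whole DR group.

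Abcg2 encodes the breast cancer resistance protein, another efflux pump. It measured 12.36, 12.09, 11.86, 12.57 and 12.22 in DV and 11.79, 12.01, 11.94 and 11.68 in CV. All DV arrays but DV708 lay above every CV array. The mean was 12.22 ± 0.27 (SD, n = 5) in DV and 11.86 ± 0.15 (SD, n = 4) in CV, a difference of 0.37 (SE 0.14, 95% interval 0.07 to 0.67), and its adjusted p was 0.240. It was 0.28 without DV709 (adjusted p = 0.233), and leaving out the 5 arrays poor in sensory neuron markers gave 0.19 (adjusted p = 0.592). The endothelial marker levels given above were also higher in 4 of the 5 DV arrays than in every CV array, and their part in the Abcg2 and Abcb1a values was not tested. Under rosiglitazone, Abcg2 measured 11.60, 12.05, 11.96, 12.20 and 11.92 in DR and 11.84, 12.06, 11.86, 11.80 and 11.69 in CR.

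The second comparison asked what rosiglitazone did in diabetic mice. Of the members, 0 of 9 passed the adjusted threshold, as did 0 genes (0%) of all tested, and 0 of 9 had an unadjusted p under 0.05, against 1305 genes (9.70%). No member had separate groups, against 85 genes (0.632%). Means were higher in DR for 2 members, Cldn1 and Ocln, and lower for 7, while 47.2% of all genes tested had the higher mean there. The median difference was -0.15 over the members and -0.02 over all genes. Diabetic vehicle arrays enter this comparison and the first one, so a high or low DV array moves both. Abcg2 differed by -0.28 (SE 0.13, 95% interval -0.56 to 0.01, adjusted p = 0.497). Without the 5 arrays poor in sensory neuron markers it was -0.010 (adjusted p = 0.997), and without either DV709 or DR716 it was -0.19. Tjp1 differed by -0.15 (SE 0.08, 95% interval -0.32 to 0.03, adjusted p = 0.506). Abcb1a differed by -0.23 (SE 0.23, 95% interval -0.71 to 0.25), and by -0.11 without DV709. Its second probe set gave -0.37 (SE 0.20). Cldn5 differed by -0.21 (SE 0.36, 95% interval -0.96 to 0.54), and Itgb4 by -0.20 (SE 0.27, 95% interval -0.76 to 0.36). For these pumps and junction genes the intervals all include 0 and, for Cldn5, a fold range from 0.514 to 1.46. Slc2a1 differed by -0.11 (SE 0.11, 95% interval -0.35 to 0.14) and Mfsd2a by -0.09 (SE 0.41, 95% interval -0.95 to 0.76). The other 2 probe sets of Slc2a1 gave -0.14 (SE 0.09) and -0.23 (SE 0.09). The differences of Cldn1, at 0.10 (SE 0.19, 95% interval -0.30 to 0.50), and Ocln, at 0.15 (SE 0.50, a fold range from 0.539 to 2.29), were the positive ones. A second probe set gave 0.11 for Cldn1 and -0.003 for Ocln. The sign turned without DV709 for Cldn5 (0.07), Itgb4 (0.04), Mfsd2a (0.13) and Slc2a1 (0.001), without DV706 for Cldn1 (-0.07) and without DV707 for Ocln (-0.37). It also turned for Mfsd2a without DV706 (0.06) or DR716 (0.11), and for Ocln without DR718 (-0.06).

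Rosiglitazone in control mice gave 0 of 9 members past the adjusted threshold and 0 at an unadjusted p under 0.05, against 0 genes (0%) and 381 genes (2.83%) of all tested. No member had separate groups, against 464 genes (3.45%). The members ran from -0.44 for Ocln (SE 0.53, 95% interval -1.55 to 0.66) to 0.31 for Cldn5 (SE 0.38, 95% interval -0.49 to 1.11). Without CR715, the Ocln difference was -0.20. Diabetic against control mice under rosiglitazone also gave 0 of 9 members by either threshold, against 0 genes (0%) and 173 genes (1.29%), and no member with separate groups, against 54 genes (0.401%). Here the members ran from -0.22 for Cldn5 (SE 0.36, 95% interval -0.97 to 0.53) to 0.09 for Abcg2 (SE 0.13, 95% interval -0.19 to 0.38). The Cldn5 value was -0.06 without DR716 and -0.38 without DR719, and the Abcg2 value was 0.18 and 0.03. The interaction, the rosiglitazone difference in diabetic mice minus that in control mice, gave 0 of 9 members by either threshold, against 0 genes (0%) and 642 genes (4.77%). It ran from -0.52 for Cldn5 (SE 0.52, 95% interval -1.61 to 0.58) to 0.60 for Ocln (SE 0.72, 95% interval -0.93 to 2.12), and leaving out DV707 gave 0.07 for Ocln and -0.87 for Cldn5, while leaving out DV709 gave 0.90 and -0.24.

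**Figure D2:**
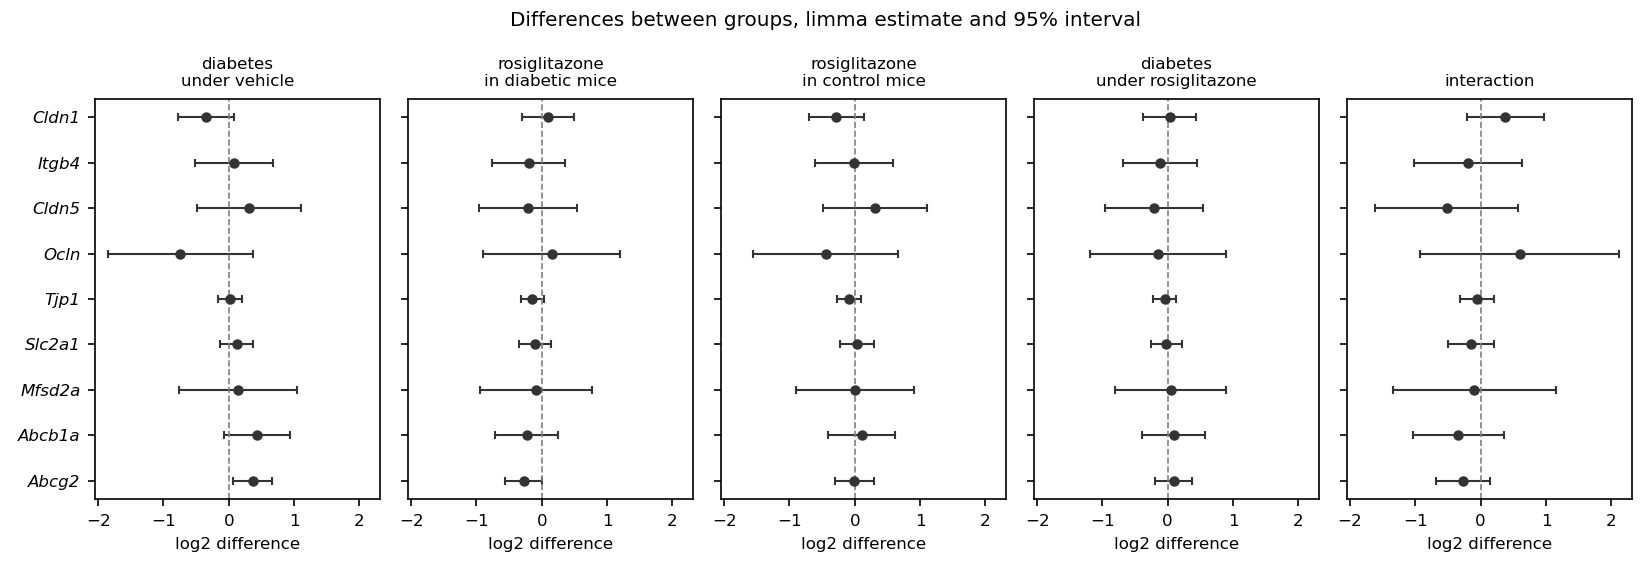
Log2 differences (horizontal axes) of the 9 barrier genes in the 5 comparisons, each as limma's estimate with its 95% interval. All intervals cross 0 except that of Abcg2 for diabetes under vehicle, at 0.07 to 0.67, and Ocln, Mfsd2a and Cldn5 have the widest.

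By the order of the group means, diabetic vehicle nerve ranked first for Itgb4, Tjp1, Slc2a1, Mfsd2a, Abcb1a and Abcg2 and last for Cldn1 and Ocln. Of the 27 gaps between neighbours in these orders, 1 was larger than the SD within groups, that between DV and DR for Abcg2, at 0.28 against 0.20. From the highest to the lowest group mean, 4 members spanned more than 1 such SD, namely Abcg2 (1.82), Tjp1 (1.45), Abcb1a (1.16) and Cldn1 (1.15). All other neighbours differed by less than their spread.

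The arrays differed more than the groups. DV709 was the highest of 19 arrays for 8 of the 9 barrier genes and among the top 3 for all 9, whereas 1154 of the genes tested (8.57%) were highest there. The exception was Tjp1, highest in DV706. DV709 also had the lowest adipocyte (-4.97), fibroblast (-0.90) and macrophage (-0.84) marker levels and the highest perineurial level (0.60). The fibroblast list did not move as one there. Dpt was 8.08 against a mean of 12.12 and Pi16 10.98 against 12.55. Col1a1 was 13.34 against 13.33, Pdgfra 12.38 against 12.43, Lum 12.24 against 12.1 and Dcn 14.4 against 14.3. The part of these contents in the members' values was not tested. At the low end, DR716 was among the lowest 3 arrays for 8 members and CR715 for 6. The share of all genes as low in each of these arrays is not given here, so the counts are not read as a trait of the members.

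**Figure D3:**
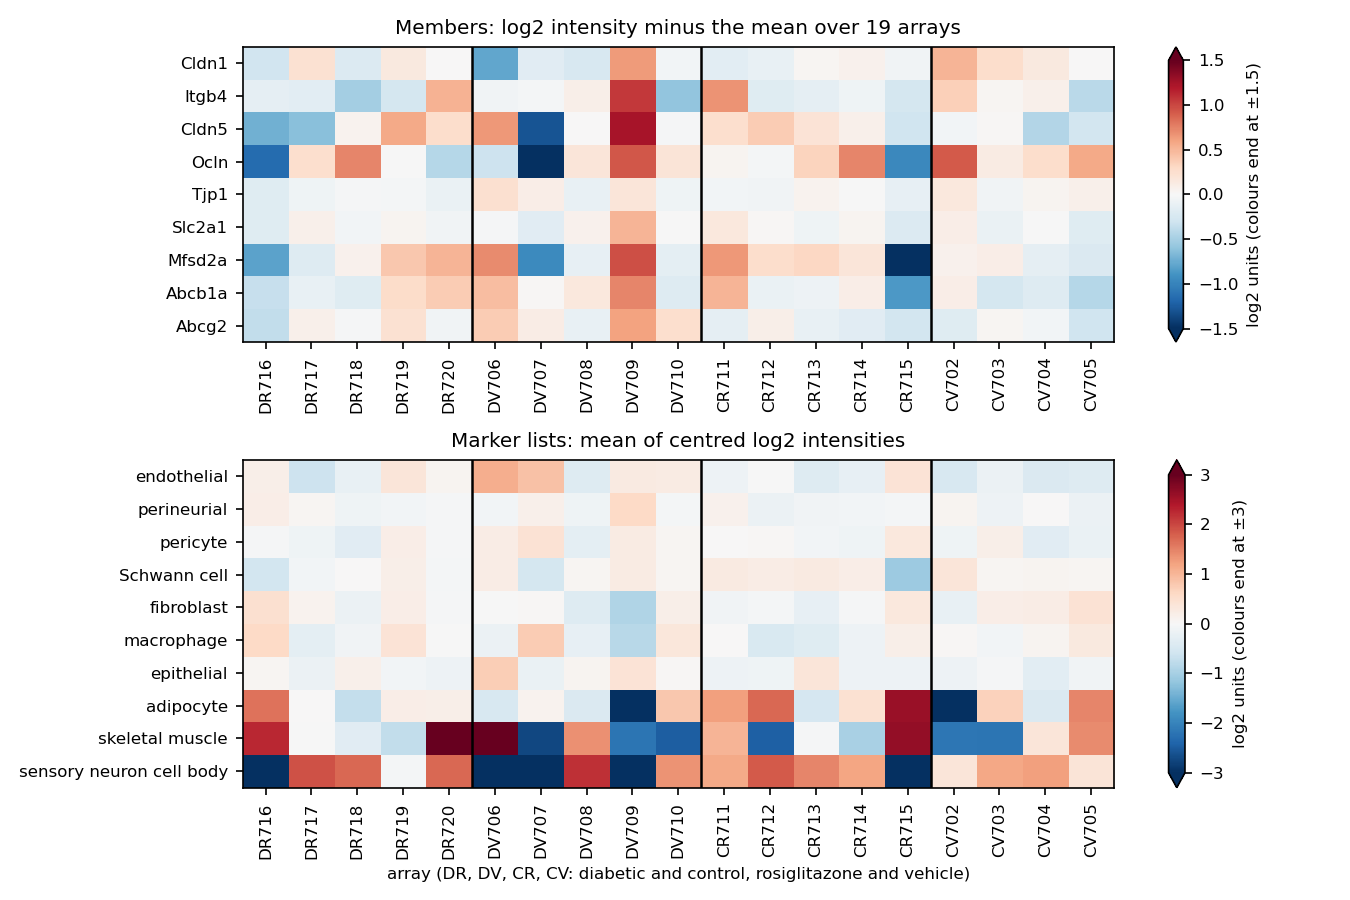
Barrier genes (upper panel, log2 intensity minus the mean over 19 arrays) and 10 cell type marker levels (lower panel, log2 units) on each array, with the groups diabetic rosiglitazone, diabetic vehicle, control rosiglitazone and control vehicle between black lines. The column of DV709 is above the mean for all 9 genes, and it has the lowest adipocyte level, -4.97.

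By the probe sets used, Ocln and Mfsd2a shared the same 3 lowest arrays, DV707, DR716 and CR715. Ocln was at 7.02, 8.24 and 8.43 there, against 8.96 or more elsewhere, and Mfsd2a at 9.02, 9.17 and 8.33, against 9.76 or more. These were also the 3 arrays lowest in Schwann cell markers, a list with 5 measured genes, at -0.53, -0.54 and -1.09, against -0.07 or more elsewhere. The list did not move as one: in DV707, S100b was 11.25 against a mean of 13.15 over the 19 arrays and Mag 8.02 against 9.07, while Sox10 was 12.31 against 11.76 and Mbp 14.21 against 14.20. All 3 arrays were also poor in sensory neuron markers, and DV707 and DR716 had wide Gapdh differences. Of all genes tested, 631 (4.69%) had these 3 arrays as their lowest. The second Ocln probe set did not: DV707 was at 7.78 and DV706 at 6.78, against a mean of 7.98. Schwann cell levels ran from -0.53 to 0.24 in DV and from 0.05 to 0.36 in CV, and from -0.54 to 0.18 in DR and from -1.09 to 0.27 in CR. The part of the marker levels and of RNA integrity in these values was not tested.

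**Figure D4:**
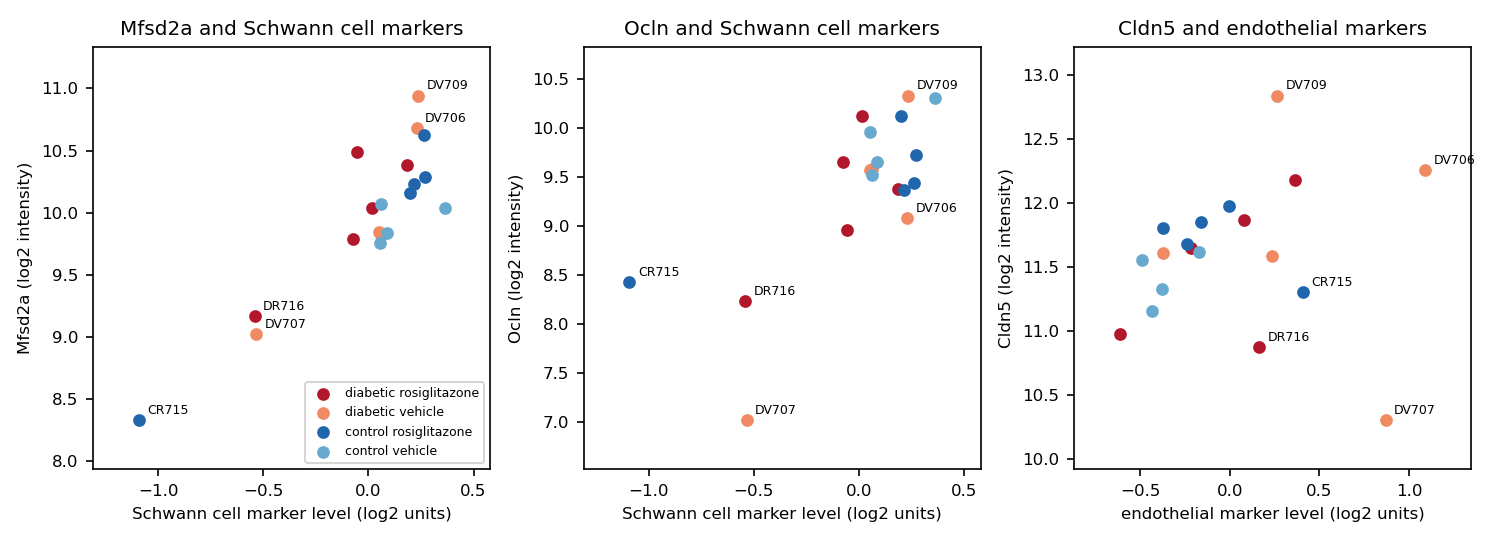
Log2 intensity of Mfsd2a and Ocln against the Schwann cell marker level and of Cldn5 against the endothelial marker level, 1 point per array, coloured by group. DV707, DR716 and CR715 lie apart at the lower left in the first and second panels, and DV707 combines the lowest Cldn5 (10.30) with a high endothelial level (0.87) in the last. DV707 also had the widest Gapdh difference, 4.38.

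Likeness between genes was described by Pearson's r of their log2 values after subtracting group means, over 19 arrays that share the differences in content above. Over the 36 pairs of members the median r was 0.49, with a range of 0.10 to 0.87, and 17 pairs were above 0.5. Without DV707 and DV709 the median was 0.37 over 17 arrays, 5 pairs were below 0 and 11 above 0.5. Mfsd2a and Abcb1a, the members whose promoters are printed above, had the highest r, 0.87, and 0.88 without those arrays. The genes most alike to each member were found among all genes tested. For Cldn1 they were F11r (r = 0.90, and 0.84 without DV707 and DV709) and Vcl (0.90 and 0.83), and for Itgb4 they were Galnt10 (0.94 and 0.93) and Kcnk15 (0.92 and 0.88). Cldn5 was most like Slc36a2 (0.92 and 0.82) and Zfp106 (0.90 and 0.71), and Ocln was most like Gjb2 (0.95 and 0.91) and Lpcat1 (0.95 and 0.92). For these first 4 members r was 0.71 or more when both arrays were left out. All of these genes were picked for the highest r over the 19 arrays, so the values on 17 of them are not independent of that choice. Tjp1 was most like Secisbp2l (r = 0.90) and Rnf13 (0.89), and Slc2a1 was most like Slc6a12 (0.93, and 0.84 without the arrays) and Prickle1 (0.92 and 0.81). Mfsd2a was most like Prss12 (0.97 and 0.98) and Dhh (0.97 and 0.97), and Abcb1a was most like Hid1 (0.95 and 0.95) and Niban2 (0.92 and 0.92). For Abcg2 the 2 most alike were Itga6 (0.86 and 0.83) and Slc39a8 (0.85 and 0.80).

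The spread between arrays was wider in diabetic vehicle nerve. The SD in DV exceeded that in CV for 9 of 9 members, with a median ratio of 2.05 and a range from 1.65 for Abcb1a to 5.02 for Mfsd2a. Over all genes tested, 92.1% had the larger SD in DV, with a median ratio of 2.52, so the members do not stand out from that share. The SD in DV also exceeded that in DR for 9 members (76.5% of genes) and that in CR for 7 (71.3% of genes). Abcb1a and Mfsd2a, with CR715 far below the rest, were the exceptions. Without DV709, 7 of 9 members, all but Itgb4 and Slc2a1, had the larger SD in DV than in CV (89.2% of genes), and without DV706 and DV707 all 9 did (77.5% of genes).

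**Figure D5:**
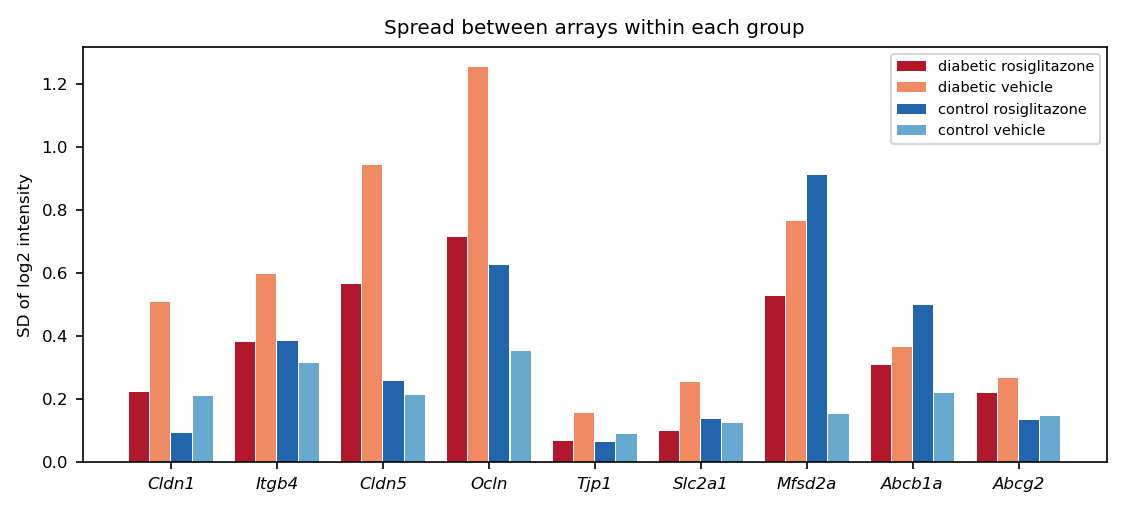
SD of the log2 intensity between arrays (vertical axis, log2 units, bars from 0) for each barrier gene in diabetic rosiglitazone, diabetic vehicle, control rosiglitazone and control vehicle nerves. The diabetic vehicle bar is above the control vehicle bar for all 9 genes, and it is tallest for Ocln, at 1.25.

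Other genes of the barrier were taken from a list of 59, of which 57 were tested, in 6 groups from junction proteins to pericyte genes. In each of the 5 comparisons 0 of the 57 passed the adjusted threshold in either direction. Under vehicle, 7 of the 57 were higher and 7 lower in diabetic nerve at an unadjusted p under 0.05. Of all 13460 genes, 2439 (18.1%) had such a p, 1444 (10.7%) on the higher side and 995 on the lower. The median difference was 0.07 over the list and 0.03 over all genes. Of 16 further junction genes, 6 had higher and 10 lower means in DV, and of 18 further transporters and carriers, 9 had higher and 9 lower means. The 5 pericyte genes had 4 higher and 1 lower. The lower one was Pdgfrb, the receptor that pericytes need for their recruitment, at 9.85, 9.95, 10.39, 10.82 and 10.86 in DV and 11.03, 10.89, 10.89 and 11.21 in CV. All DV arrays lay below every CV array, as groups did for 5.06% of all genes in either direction, and the difference was -0.63 (SE 0.19, adjusted p = 0.238). DV706 and DV707, with DR716 at 10.35, were the 3 arrays with the widest Gapdh difference and the 3 lowest in Pdgfrb, while DV709 and DV710 lay just under the CV minimum. The part of RNA integrity in these values was not tested. Slc38a5, an amino acid carrier gene, measured 3.18, 5.21, 7.47, 4.64 and 7.20 in DV and 9.28, 6.83, 8.73 and 7.84 in CV. The groups overlapped, and the difference was -2.63 (SE 0.95, adjusted p = 0.238). It was also 5.002 in DR716 and 5.10 in CR715, so the 5 arrays poor in sensory neuron markers were its 5 lowest, against 6.83 or more on the others. The part of that content in the Slc38a5 difference was not tested. Those 5 values all lay below 5.54, the filter's cut on a gene's mean, so the DV mean rests partly on low values.

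In the other comparisons the 2 further barrier genes with the smallest p were these. With rosiglitazone in diabetic mice, Cd151, a tetraspanin bound to laminin-binding integrins, differed by -0.24 (SE 0.11) and Jam2, a junctional adhesion molecule, by -0.43 (SE 0.21), both with an adjusted p of 0.497. Jam2 was 11.24 in DR716, 11.80 in DV706 and 11.84 in DV707, the 3 highest values, and Cd151 was highest in DV706 (14.03) and DV707 (13.97), the arrays with Gapdh differences of 3.71 and 4.38. The part of RNA integrity in both differences was not tested. With rosiglitazone in control mice, Slco2b1, an organic anion carrier, differed by -0.23 and Itgb1, the integrin beta 1 gene, by -0.37. Between diabetic and control mice under rosiglitazone, Cgn, which encodes the junction protein cingulin, differed by 0.70 (SE 0.38) and Cav1, which encodes the coat protein of caveolae, by -0.16 (SE 0.10). The interaction was -0.35 for Cd151 and 0.60 for Itgb1 (adjusted p = 0.748 for both). At an unadjusted p under 0.05 the list held 2 genes for rosiglitazone in diabetic mice (9.70% of all genes), 0 for rosiglitazone in control mice (2.83%), 0 for diabetes under rosiglitazone (1.29%) and 1 for the interaction (4.77%).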

How the data were processed

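Sciatic nerve RNA of 19 mice was hybridised to Affymetrix arrays, 1 array per sample, after extraction with RNeasy columns and amplification and biotin labelling with the NuGEN Ovation kit, per the labels' protocols. The authors deposited 1 intensity per probe set on a linear scale, made with RMA per the submitters' processing notes, and the sources used here do not give the step back from log2. The arrays' median intensities ran from 83.3 to 101.7, and the number of arrays limits the precision.

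Intensities were put on the log2 scale without an offset. Of 45101 probe sets, 64 controls were left out and 34945 had 1 symbol, from the platform annotation. Each gene took its probe set with the highest mean. Genes with a mean above the 40th percentile of probe sets (5.54) were tested with limma 3.58.1 in R 4.3.3, 1 mean per title group, moderated variances, and Benjamini-Hochberg adjustment within each of 5 comparisons at 0.05. The code was tested on simulated data. Named were the members, the 2 genes most alike to each, and the 2 further barrier genes with the smallest p per comparison. The members and lists were chosen with earlier results of these data known. The design text gives different mice, so p-values measure the spread between animals. Alternatives changed the filter, offset, scaling, probe set, weights, covariate and arrays used.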

Additional observations from a re-analysis of the deposited data

Results flagged for a closer look

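Of 36 combinations of a barrier gene and a group, 2 held an array far from the rest of its group. Chance alone flags about 1 group in 20. Itgb4 was at 12.32 in array CR711, against 11.57 in the nearest of the other control rosiglitazone arrays. The gap was 0.788 of the group's range, above the critical value of 0.71 for 5 samples. Mfsd2a was at 8.33 in array CR715, against 10.16 in the nearest control rosiglitazone array, a gap of 0.798 of the range. CR715 also had the lowest Schwann cell marker level of all arrays, -1.09, and a high adipocyte level, 2.59.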

How the results depend on the processing

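Of 581 alternative values for members, 540 kept their sign and their side of the threshold, 41 turned their sign, and 0 passed the adjusted threshold. The lowest adjusted p of a member was 0.133, for Abcg2 under vehicle without DV710. Where a sign turned the cause was not tested, beyond the arrays left out. For diabetes under vehicle, Tjp1 was -0.031 with array weights, -0.038 with the Gapdh covariate, -0.055 without DV706 and DV707, and -0.15 without the 5 arrays poor in sensory neuron markers, which also gave Itgb4 -0.27 and Mfsd2a -0.089. Ocln was 0.013 with the covariate. Without CV702 and DV709, the arrays lowest in adipocyte markers (-3.58 and -4.97), Itgb4 was -0.048 and Mfsd2a -0.043. Leaving out this pair was a choice made after seeing the data. For rosiglitazone in diabetic mice, the covariate gave Cldn1 -0.12 and Ocln -0.62, and leaving out DV706 and DV707 gave -0.14 and -0.56. Without the 5 arrays Ocln was -0.050, Itgb4 0.15, Cldn5 0.070, Tjp1 0.038, Mfsd2a 0.34 and Abcb1a 0.11. Without CV702 and DV709 Itgb4 was 0.040, Cldn5 0.071, Slc2a1 0.0013 and Mfsd2a 0.13. The Ocln interaction was -0.19 with the covariate and -0.11 without DV706 and DV707. Leaving out 1 array at a time gave, under vehicle, -0.030 to 0.058 for Tjp1, -0.16 to 0.25 for Itgb4 and -0.080 to 0.40 for Mfsd2a. For rosiglitazone in diabetic mice it gave -0.065 to 0.29 for Cldn1, -0.35 to 0.13 for Mfsd2a, -0.37 to 0.46 for Ocln, -0.37 to 0.040 for Itgb4, -0.56 to 0.071 for Cldn5 and -0.17 to 0.0013 for Slc2a1. Of all genes, diabetes under vehicle called 1 with every probe set tested on its own and 0 to 4 with 1 array left out, and rosiglitazone in control mice called 20 with array weights. Without DV706 and DV707, 606 genes had an unadjusted p under 0.05 for diabetes under vehicle, against 2439. No paired analysis was possible because no replicate number is shared between groups, and the interaction has no fit on 2 groups alone.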

Other observations

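Cldn1 was also set against 3 other members within each array, pairs chosen after their values were seen. The Cldn1 minus Slc2a1 difference ran from -2.15 to -1.26 in diabetic vehicle arrays and from -1.24 to -0.99 in control vehicle arrays, and no value was shared, with a gap between the groups that was small beside their ranges. Cldn1 minus Itgb4 overlapped, at -0.35 to 0.92 in diabetic and 0.44 to 0.78 in control vehicle arrays, as did Cldn1 minus Tjp1, at -1.71 to -0.23 in diabetic and -0.77 to -0.35 in control vehicle arrays. With the second Cldn1 probe set, the difference to Slc2a1 overlapped too, at -6.02 to -4.70 in diabetic arrays and -5.59 to -4.71 in control arrays. Under rosiglitazone, Cldn1 minus Slc2a1 ran from -1.56 to -1.24 in diabetic arrays and from -1.72 to -1.24 in control arrays. None of these differences was tested.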
